A study of Mus musculus with 2 samples.

Results

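The chemokine receptor CXCR3 and its interferon-induced ligands CXCL9 and CXCL10 were followed through every cell class of shYT cholangiocarcinoma (CCA) with and without anti–PD-1 treatment. The members are the genes *Cxcl9*, *Cxcl10* and *Cxcr3*, which were found by symbol and are 3 of the 32589 genes in the count tables. CXCL9 and CXCL10 are secreted proteins that are induced mainly by interferon-γ, which acts through the kinases JAK1 and JAK2 and the transcription factors of the STAT and IRF families. They bind CXCR3, a receptor that is carried by activated and memory CD8 T cells, by T helper 1 cells, by NK cells and by some plasmacytoid dendritic cells. In tumors this axis is known for drawing T cells into the tissue and for bringing them into contact with dendritic cells and macrophages that make the ligands.

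Single-cell RNA-Seq (scRNA-Seq) was measured in 2 libraries from tumor-bearing mouse livers, 1 library per group. CCA was induced in both groups by hydrodynamic tail vein injection of transposon plasmids for activated Notch (NICD) and membrane-bound AKT (myr-AKT). Both groups are shYT, with doxycycline-inducible shRNAs against *Yap1* and *Taz* (*Wwtr1*) that the CAG-driven rtTA3 transactivator switches on throughout the body, and the comparison addresses what anti–PD-1 adds to YAP/TAZ depletion. The shYT_PBS group received doxycycline from day 25 and PBS, and the shYT_antiPD1 group received doxycycline from day 25 and the anti–PD-1 antibody RMP1-14 on days 26, 29 and 32, with both analyzed on day 33. By its design the knockdown was not limited to tumor cells, and both groups carried it, so neither its extent nor its own effect was compared. The labels name neither the shRNA line, the sex or age nor the number of animals behind a library. The study gives several per group for its anti–PD-1 single-cell experiment, and whether their cells were pooled is not given in the sources used here.

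A count in these data is a unique molecular identifier (UMI), which marks 1 captured transcript. The libraries held 19397 and 19451 cell barcodes, of which 15531 (80.1%) and 16360 (84.1%) were kept, with a median of 3159 and 2990 UMIs. Kept cells had between 500 and 5000 genes detected and no more than 10% of UMIs from mitochondrial genes. Cells were assigned to classes by fixed marker genes, and each class name below stands for cells that passed its marker gate. The gate left 2556 PBS cells (16.5%) and 2957 anti–PD-1 cells (18.1%) unassigned. The libraries differed in sex chromosome transcripts. *Xist* had 18452 UMIs with PBS and 11 with anti–PD-1, and 4 Y-linked genes had 3113 and 15323. Of the PBS cells, 6686 had an *Xist* UMI and none of the Y-linked genes, and 1481 had the reverse, so that library held cells of both kinds. The latter kind, called Y-positive below, is therefore given on its own beside results of the main classes and where it ends or turns a call. In tumor and biliary cells, the targeted gene *Yap1* was at 9.69 UMIs (95% counting interval 7.50–12.3) per 1000000 UMIs of the class (CPM) with PBS and 10.2 CPM (6.99–14.3) with anti–PD-1, *Wwtr1* at 11.3 and 8.62 CPM, and the biliary marker *Krt19* at 719 and 515 CPM. The libraries shared 219 barcodes, of which 145 were kept in both.

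Both ligand genes lie on the reverse strand of chromosome 5 of the mm10 mouse genome, with 18558 bases between them. *Cxcl9* (ENSMUSG00000029417) spans chr5:92321347-92328079, *Cxcl10* (ENSMUSG00000034855) spans chr5:92346638-92348889, and *Cxcr3* (ENSMUSG00000050232) spans chrX:101731535-101734269, also on the reverse strand. The 250 bases before each RefSeq start site (GRCm38.p6, chr5:92328080-92328329 for *Cxcl9* and chr5:92348890-92349139 for *Cxcl10*) are printed because the expression data below concern the induction of these genes. Capitals mark matches to the motifs searched on both strands, namely the gamma-activated site of interferon-γ-induced genes (GAS, TTCNNNGAA), the core of the interferon-stimulated response element to which IRF proteins bind (ISRE, GAAA and GAAA with NN between them) and the core of the NF-κB site (GGGNNTTCC).
Cxcl9: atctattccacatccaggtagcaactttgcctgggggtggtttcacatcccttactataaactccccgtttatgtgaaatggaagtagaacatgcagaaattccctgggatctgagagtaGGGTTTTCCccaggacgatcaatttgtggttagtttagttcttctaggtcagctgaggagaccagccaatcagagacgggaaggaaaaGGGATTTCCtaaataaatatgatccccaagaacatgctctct
Cxcl10: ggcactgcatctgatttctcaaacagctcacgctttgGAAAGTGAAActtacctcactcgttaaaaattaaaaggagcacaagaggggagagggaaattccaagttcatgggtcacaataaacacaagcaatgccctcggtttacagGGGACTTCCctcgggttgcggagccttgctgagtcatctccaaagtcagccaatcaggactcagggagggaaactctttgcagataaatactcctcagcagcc
The *Cxcl10* window held 1 ISRE core (GAAAGTGAAA, bases -213 to -204 from the start site) and 1 NF-κB core (GGGACTTCC, -103 to -95). The *Cxcl9* window held 2 NF-κB cores, GGGTTTTCC at -130 to -122 and GGGATTTCC at -42 to -34. The same window of *Cxcr3* held 0 matches to the motifs. Of 32851 promoter windows of this length, 2.98% held an ISRE core, 4.98% an NF-κB core and 7.02% a GAS. A match is a description of the letters, other forms of these sites were not searched, and binding was not measured.

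In the sum over all kept cells, both ligands were higher and the receptor was lower with anti–PD-1. *Cxcl9* was at 96.3 CPM with PBS and 203 with anti–PD-1, *Cxcl10* at 49.9 and 224, and *Cxcr3* at 47.9 and 38.8. The cellular makeup of the libraries differed, so each member was also computed with the shares of the gated classes and of ungated cells held at those of the PBS library. *Cxcl9* was then 3.35-fold higher, against 2.11-fold in the plain sums. *Cxcl10* was 5.97-fold higher, against 4.49-fold. *Cxcr3* was 1.67-fold lower, against 1.23-fold in the plain sums. For all 3 members the difference with class shares held was therefore larger than that in the whole libraries. Makeup inside a class was not held, and some classes joined unlike cells in the libraries, as given below. These folds can therefore still contain a difference in makeup.

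The cells that held the ligand transcripts differed between the libraries, by an extent that depended on how macrophages were gated. Macrophages outside the Kupffer gate, called tumor-associated macrophages (TAMs) here, held 42.1% (41.0–43.2) of all *Cxcl9* UMIs with PBS and 8.98% (8.54–9.43) with anti–PD-1, and their number among kept cells was 2028 and 446. Tumor and biliary epithelial cells, which the gate does not separate, held 0.906% and 13.8% of the *Cxcl9* UMIs. Kupffer cells, the resident macrophages of the liver sinusoids, held 1.30% and 12.6%. For *Cxcl10*, TAMs held 37.7% with PBS and 8.43% with anti–PD-1, and Kupffer cells held 2.26% and 18.6%. T cells held most of the *Cxcr3* UMIs in both libraries, at 61.2% and 63.1%. Ungated cells held 28.8% and 34.4% of the *Cxcl9* UMIs, and 1648 of those 2194 UMIs (75.1%) with PBS and 3796 of 5422 (70.0%) with anti–PD-1 lay in cells of the clusters classed as TAMs. Of these 793 and 761 ungated cells, 441 and 575 had a *Clec4f* UMI, which the TAM gate does not admit, and they held 55.5% and 82.5% of those UMIs. With classes taken from clusters, TAMs were 3105 and 1523 cells and held 74.6% (73.6–75.6) and 40.2% (39.4–41.0) of the *Cxcl9* UMIs. By that count they were the largest source in both libraries. Kupffer cells were at 5.65% and 19.4% and tumor and biliary cells at 0.998% and 14.8%. The Kupffer class from clusters is mixed, since only 164 of the 1304 cells of its cluster 10 had passed the Kupffer gate. With anti–PD-1, however, 3130 of the 6341 *Cxcl9* UMIs of the TAM clusters lay in ungated cells with a *Clec4f* UMI. *Clec4f* is a marker of the Kupffer gate. The order in that library therefore depends on how such cells are labelled. With classes from clusters, TAMs held 60.0% and 40.8% of the *Cxcl10* UMIs. The 95% intervals in parentheses allow for counting error but not for the spread between cells or between animals. With no replicate, the groups were not tested against each other.

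**Figure D1:**
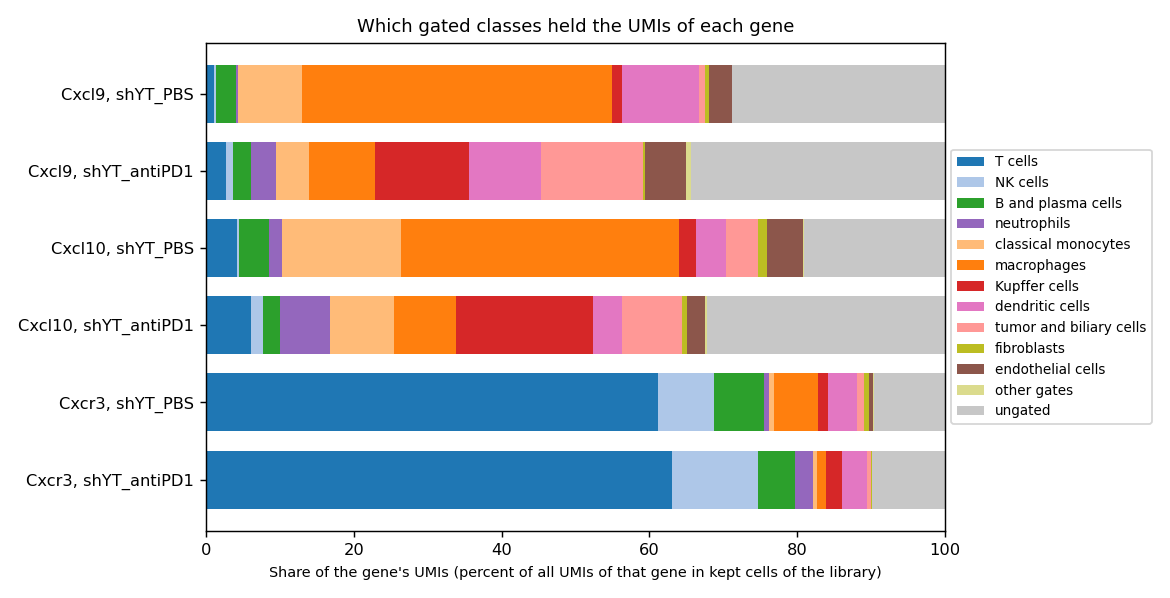
Share of the UMIs of each member (percent of all UMIs of that gene in kept cells of a library, x axis) held by each gated class, as stacked bars for the 3 members in each library. Gated TAMs hold 42.1% of *Cxcl9* UMIs with PBS and 8.98% with anti–PD-1 (74.6% and 40.2% with classes from clusters), while T cells hold 61.2% and 63.1% of *Cxcr3* UMIs.

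A difference counts as at least 2-fold here when 5 CPM is added to each level and the log2 of the anti–PD-1 level divided by the PBS level is then at least 1 in size, for the members and all other genes alike. Classes were compared when each library held at least 50 cells of them, which leaves out hepatocytes (64 and 20 cells, 1 and 42 *Cxcl9* UMIs) and basophils and mast cells (21 and 24 cells, 0 and 50 *Cxcl9* UMIs). *Cxcl9* was higher by this rule in 9 of the 15 such classes with at least 10 UMIs of it and lower in 1. *Cxcl10* was higher in 13 of 14 classes and lower in 0. The higher calls of both ligands include T cells, NK cells and plasma cells, whose values serve below as a reference level. Barcodes outside the filters also held more of both ligands with anti–PD-1, as given at the end. *Cxcr3* was higher in 0 of 14 classes and lower in 2, B cells and plasmacytoid dendritic cells. With the highest cell left out of each class, the number of classes with lower *Cxcl9* was 0 and that with lower *Cxcr3* was 4. The number with higher *Cxcl9* lay between 8 of 15 and 13 of 15 over the alternatives run, and that with higher *Cxcl10* between 12 of 14 and 14 of 14, with 11 of 12 for classes from clusters. The share of all genes called higher by this rule was 1.07% in T cells, 1.87% in NK cells, 1.36% in B cells, 3.89% in plasma cells, 2.04% in neutrophils and 2.62% in classical monocytes. It was 2.30% in TAMs, 1.46% in Kupffer cells, 4.92% in conventional type 1 dendritic cells (cDC1s), 2.86% in conventional type 2 dendritic cells (cDC2s), 4.76% in mature migratory dendritic cells and 6.93% in plasmacytoid dendritic cells. It was 2.39% in tumor and biliary cells, 3.30% in cancer-associated fibroblasts (CAFs) and 3.63% in endothelial cells. The median log2 ratio of all genes lay between -0.24 and 0.03 in these classes.

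**Figure D2:**
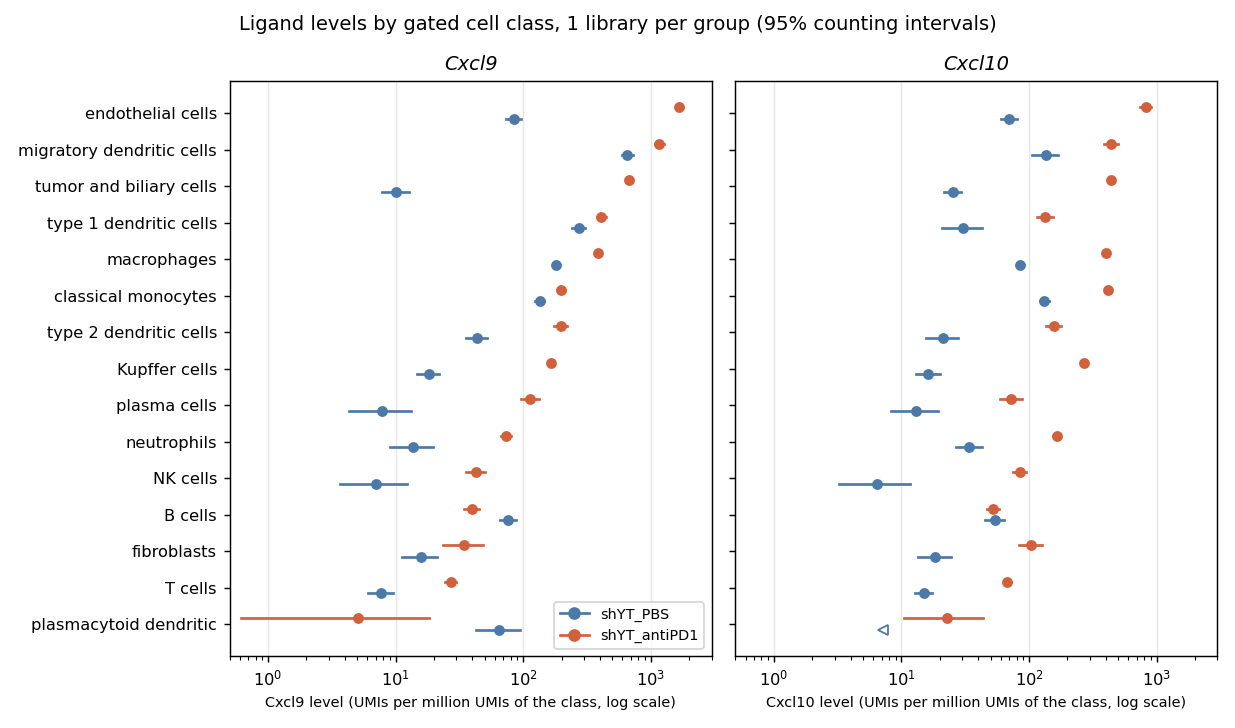
*Cxcl9* (left) and *Cxcl10* (right) levels in CPM of the class (log axis) in 15 gated classes, with 95% counting intervals, for shYT_PBS and shYT_antiPD1, 1 library each. *Cxcl9* in tumor and biliary cells is at 10.1 CPM with PBS and 672 with anti–PD-1, and the open triangle marks 7.16 CPM (3 counts) for *Cxcl10* in plasmacytoid dendritic cells with PBS, where its count was 0.

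Among these 15 classes, *Cxcl9* differed most by this measure in tumor and biliary cells. They had 69 *Cxcl9* UMIs in 1552 PBS cells, 10.1 CPM (7.89–12.8), and 2182 UMIs in 1052 anti–PD-1 cells, 672 CPM (644–701). The ratio was 66.3 (52.2–85.5) and the log2 ratio 5.48 (5.24–5.72), the 15th highest of 14447 genes with at least 10 UMIs in this class. The PBS level was near that of T cells of the same library (7.68 CPM), a class not known to make CXCL9, so the ratio has a base at the level found across cell types. One anti–PD-1 cell held 336 UMIs (15.4%), and without the highest cell of each library the log2 ratio was 5.32. *Cxcl10* in the same cells had 172 and 1423 UMIs, 25.3 and 438 CPM, a ratio of 17.3 (14.8–20.4). The difference was seen in cluster 0, which held 81.6% of the gated PBS cells and 79.4% of the anti–PD-1 cells, with *Cxcl9* at 10.9 and 817 CPM. Cluster 17, led by the digestive enzyme genes *Try5*, *Ctrb1* and *Prss2*, had low levels, with *Cxcl9* at 3.75 and 14.0 CPM (4 and 8 UMIs, log2 ratio 1.12) and *Cxcl10* at 12.2 and 59.7 CPM (log2 ratio 1.91). In Y-positive cells, *Cxcl9* was at 6.52 CPM (4 UMIs, 87 cells) and 871 CPM (292 cells).

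Endothelial cells, which line the vessels that T cells must cross, had the highest level of both ligands in the anti–PD-1 library. *Cxcl9* was at 84.4 CPM (73.9–96.0, 571 cells) and 1678 CPM (1570–1792, 117 cells), a ratio of 19.9 (17.2–23.1). Its log2 ratio of 4.23 was the highest of 11894 genes in this class. *Cxcl10* was at 70.1 and 819 CPM, a ratio of 11.7 and the 4th highest log2 ratio (3.46). Few cells carried much of this, since 1 anti–PD-1 cell held 204 of 893 *Cxcl9* UMIs (22.8%) and 1 PBS cell held 70 of 231 (30.3%), and without the highest cell of each library *Cxcl9* was at 59.1 and 1323 CPM. Cluster 16 held 95.4% and 87.2% of the gated cells, with *Cxcl9* at 47.5 and 1720 CPM. In Y-positive endothelial cells *Cxcl9* was at 357 CPM in 38 PBS cells and 2091 CPM in 49 anti–PD-1 cells.

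Kupffer cells had low levels of both ligands with PBS. *Cxcl9* was at 18.2 CPM (14.8–22.1, 611 cells) with PBS and 166 CPM (159–173, 1306 cells) with anti–PD-1, a ratio of 9.14 (7.46–11.3). *Cxcl10* was at 16.3 and 269.5 CPM, and its log2 ratio of 3.69 was the highest of 13757 genes. Both ligands were higher within cluster 5 alone, which held 95.1% and 83.8% of the gated Kupffer cells, with *Cxcl9* at 18.4 and 162 CPM and *Cxcl10* at 16.5 and 262 CPM. In Y-positive Kupffer cells *Cxcl9* was at 4.17 CPM (103 cells) and 152 CPM (817 cells). Over all alternatives run, the log2 ratio of *Cxcl9* in Kupffer cells (2.88) lay between 1.94 and 4.72.

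TAMs had the largest share of the ligand UMIs with PBS and smaller ratios than Kupffer or tumor cells. *Cxcl9* was at 182 CPM (176–189, 3208 UMIs) with PBS and 389 CPM (369–410.2, 1416 UMIs) with anti–PD-1, a ratio of 2.14 (2.01–2.27) and a log2 ratio of 1.07 (0.98–1.16), which was 0.96 and within 2-fold after thinning. *Cxcl10* was at 84.5 CPM (80.2–88.9) and 403 CPM (383–424), a ratio of 4.77 (4.44–5.13) and a log2 ratio of 2.19 (2.09–2.29). These ratios set unlike cells against each other. Cluster 2, led by *Gdf3*, *Cx3cr1*, *Fcrls*, *Gpnmb* and *Tmem119*, held 96.5% of the gated TAMs with PBS and 12.8% with anti–PD-1. Cluster 9, led by *Serpinb2*, *Alox15*, *Prg4* and *Ccl12*, held 1.13% (23 cells) and 83.4% (372 cells). Within each of these clusters *Cxcl9* was lower with anti–PD-1, at 161 and 96.1 CPM in cluster 2 and at 1769 and 420.2 CPM in cluster 9. *Cxcl10* was at 71.3 and 107 CPM in cluster 2 and at 1018 and 434 CPM in cluster 9. The higher *Cxcl9* of all gated TAMs thus went with a different makeup of that class. In Y-positive TAMs, *Cxcl9* was at 109.6 CPM (237 cells) and 356 CPM (243 cells), and *Cxcl10* at 47.0 and 399.6 CPM.

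*Cxcl9* in TAMs was concentrated in few cells. In the PBS library, 247 of 2028 TAMs had a *Cxcl9* UMI, and the 5% of cells with the most (102 cells) held 92.5% of the UMIs. In the anti–PD-1 library 130 of 446 cells had one, and the top 5% held 67.3%. *Cxcr3* in CD8 T cells was spread more evenly, with 32.3% and 36.6% of its UMIs in the top 5%.

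Dendritic cells held ligand transcripts in both libraries. Mature migratory dendritic cells, which carry antigen to lymph nodes and meet T cells there, had the highest *Cxcl9* level of all classes with PBS at 657 CPM (591–727), and were at 1170 CPM (1083–1262) with anti–PD-1, a ratio of 1.78. Of the 666 *Cxcl9* UMIs of migratory cells with anti–PD-1, 1 cell held 228. Without the highest cell of each library the levels were 532 CPM with PBS and 784 CPM with anti–PD-1. In cDC1s, which cross-present antigen to CD8 T cells, *Cxcl9* was at 272 and 411 CPM, a ratio of 1.51 (1.31–1.74). In cDC2s, which mainly activate CD4 T cells, it was at 43.3 and 197 CPM, a ratio of 4.53 (3.61–5.73). Of these 3 classes, only cDC2s passed the 2-fold rule for *Cxcl9*, whereas all 3 passed it for *Cxcl10*. *Cxcl10* was at 135 and 441 CPM in migratory dendritic cells, at 30.5 and 134 CPM in cDC1s, and at 21.1 and 156 CPM in cDC2s. The cDC1 values joined unlike cells, since macrophage cluster 9 held 0 of the PBS cells but 25 anti–PD-1 cells with 103 of the *Cxcl10* UMIs. Within cluster 12, which held 71.6% and 65.4% of the cDC1s, *Cxcl10* was at 28.3 and 42.7 CPM and *Cxcl9* at 349 and 434 CPM, both within 2-fold. Gated cDC2s within cluster 12 passed for both ligands, with *Cxcl9* at 48.0 and 164 CPM and *Cxcl10* at 12.5 and 89.8 CPM. Gated migratory cells within cluster 12 passed for *Cxcl9*, at 367 and 832 CPM, and all gated migratory cells passed without marked doublets (513 and 1174 CPM). The cDC1s passed for *Cxcl9* with the stricter gate (160.2 and 475 CPM). Cluster 12 as a whole, which mixes these 3 classes, was within 2-fold for both ligands, at 200.2 and 338 CPM of *Cxcl9* and 69.0 and 134 CPM of *Cxcl10*. Few Y-positive PBS cells were dendritic, and *Cxcl9* had 3 UMIs in 14 such migratory cells (28.8 CPM), against 682 CPM in 52 cells with anti–PD-1, and 1 UMI in 12 cDC1s (9.53 CPM), against 310.3 CPM in 89 cells. Plasmacytoid dendritic cells, the main makers of type I interferon, were the only class in which *Cxcl9* was called lower, at 64.4 and 5.05 CPM. One PBS cell held 25 of the 27 UMIs (92.6%) there, and without the highest cells the log2 ratio moved from -2.79 to -0.39. In Y-positive cells it was 1.09 (6 and 43 cells), on 2 UMIs with anti–PD-1. *Cxcl10* had 0 and 9 UMIs in that class, and the count of 0 allows up to 7.16 CPM (3 counts) against 22.7 CPM.

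Classical monocytes, recruited blood cells that become macrophages, had *Cxcl9* at 135 CPM (125–146) and 198 CPM (184–213), within 2-fold, and past it after thinning (87.9 and 246 CPM). Their *Cxcl10* was at 132 and 416 CPM, a ratio of 3.15 (2.87–3.47). In Y-positive monocytes *Cxcl10* was at 320.2 CPM (54 cells) and 393 CPM (282 cells), a log2 ratio of 0.29, which ends the 2-fold call. The monocytes came from unlike clusters, since cluster 13 held 68.4% and 43.8% of them and cluster 9 held 0.433% and 33.5%, and within cluster 13 *Cxcl9* was at 75.9 and 117 CPM and *Cxcl10* at 117 and 377 CPM. Neutrophils had *Cxcl9* at 13.6 and 73.4 CPM and *Cxcl10* at 34.1 and 165 CPM. The gated neutrophils were unlike between libraries, since cluster 11, led by the granule genes *Camp*, *Ngp* and *Ltf*, held 85.0% of them with PBS and 0.952% with anti–PD-1, whereas cluster 4 held 10.6% and 77.1%. Within cluster 4 *Cxcl10* was lower with anti–PD-1, at 136 and 82.6 CPM (32 and 418 UMIs), and *Cxcl9* was at 12.7 and 55.1 CPM. Within cluster 11 *Cxcl10* was at 20.1 and 32.2 CPM, and in cluster 14, with 2.06% and 18.3% of the neutrophils, at 0 and 375 CPM. CAFs had *Cxcl9* at 15.7 and 34.5 CPM, within 2-fold, but 1 PBS cell held 16 of the 41 UMIs, and without the highest cells the levels were 9.56 and 29.3 CPM (log2 ratio 1.24). The stricter gate (8.40 and 30.1 CPM) and the removal of marked doublets (13.8 and 35.2 CPM) also put CAFs past 2-fold. *Cxcl10* in CAFs was at 18.3 and 103 CPM, a ratio of 5.65 (3.96–8.14).

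Lymphocytes are not known as main sources of these ligands, and their values give a reference level for the other classes. T cells had *Cxcl9* at 7.68 and 27.2 CPM and *Cxcl10* at 15.0 and 67.8 CPM. NK cells had *Cxcl9* at 7.06 and 42.6 CPM and *Cxcl10* at 6.48 and 84.6 CPM. B cells had *Cxcl9* at 76.7 and 39.5 CPM, but 1 PBS cell held 112 of 194 UMIs (57.7%), and without the highest cells the log2 ratio moved from -0.88 to 0.07. *Cxcl10* in B cells was at 54.2 and 52.4 CPM, within 2-fold, but the call depended on few PBS cells. One of them held 64 of 137 UMIs, and without the highest cells the levels were 29.0 and 49.1 CPM. *Cxcl10* was past 2-fold higher with the stricter gate (3.89 and 50.3 CPM) and with classes from clusters (6.85 and 43.5 CPM). In Y-positive B cells (120 and 871 cells) both ligands were past 2-fold lower. *Cxcl9* was at 193 and 40.7 CPM and *Cxcl10* at 177 and 60.3 CPM. In cluster 3, which held 95.7% and 94.2% of the gated B cells, both ligands were higher with anti–PD-1. *Cxcl9* was there at 7.99 and 34.9 CPM and *Cxcl10* at 7.05 and 43.2 CPM. Of the PBS B cell UMIs, this cluster held 17 of 194 for *Cxcl9* and 15 of 137 for *Cxcl10*. Plasma cells had *Cxcl9* at 7.90 and 114 CPM, and 1 anti–PD-1 cell held 146 of 164 UMIs (89.0%). Without the highest cells 5 and 18 UMIs were left, at 2.91 and 12.9 CPM, a log2 ratio of 1.18 (0.41–1.83). T cells with a *Cxcl9* UMI were marked as doublets more often than those without, at 24.5% (13.8–38.3) against 3.17% with PBS and 9.86% (6.65–13.9) against 4.93% with anti–PD-1. They also had more transcripts of the macrophage markers other than *Apoe*, at 3051 against 709 CPM with PBS and 1043 against 768 CPM with anti–PD-1. Their part in the lymphocyte values was not tested.

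The share of cells with a UMI was compared after thinning each cell to 1000 UMIs, because deeper cells show more genes. *Cxcl9* was found in 1.31% (0.767–2.09) of tumor and biliary cells with PBS and in 17.7% (15.1–20.6) with anti–PD-1, whereas the B cell share was 1.22% and 2.89%. The PBS share of tumor cells was thus at the level of B cells, and near that of neutrophils (1.14%), and is read as background. It stood above the T cell share with PBS (0.488%, 0.279–0.792). PBS B cells with a *Cxcl9* UMI were marked as doublets at 17.4% (4.95–38.8), against 5.95% of those without. In TAMs the *Cxcl9* share was 5.63% and 14.6%, and in Kupffer cells 1.19% and 8.90%. In endothelial cells it was 4.84% and 32.7%, and in migratory dendritic cells 13.7% and 23.2%. With anti–PD-1 all 5 of these classes stood above B cells, and with PBS Kupffer cells and tumor cells did not. *Cxcl10* was found in 2.08% and 19.5% of tumor and biliary cells, in 3.84% and 18.5% of TAMs and in 1.87% and 18.0% of Kupffer cells, against 0.714% and 4.19% of B cells. Before thinning, *Cxcl9* was found in 12.2% and 29.1% of TAMs and in 3.03% and 23.3% of tumor cells, and *Cxcl10* in 10.9% and 43.3% of TAMs.

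**Figure D3:**
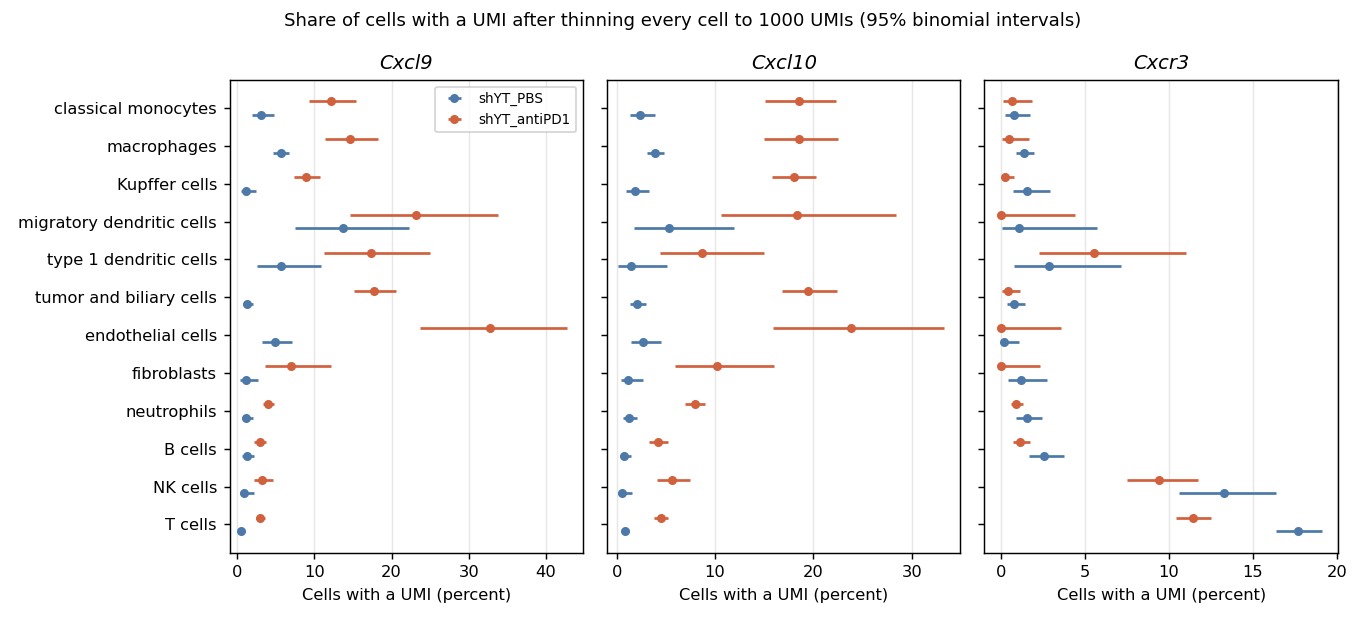
Percent of cells with a UMI (x axis) of *Cxcl9*, *Cxcl10* and *Cxcr3* after thinning each cell to 1000 UMIs, in 12 gated classes, with 95% binomial intervals, for shYT_PBS and shYT_antiPD1. *Cxcl9* is found in 1.31% and 17.7% of tumor and biliary cells, and *Cxcr3* in 17.7% and 11.4% of T cells.

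The balance of the ligands differed between cell classes. TAMs had 0.463 *Cxcl10* UMIs for each *Cxcl9* UMI with PBS (0.435–0.493) and 1.04 with anti–PD-1 (0.962–1.11). Tumor and biliary cells had 2.49 (1.87–3.35) and 0.652 (0.610–0.698). The PBS ratio of tumor cells rests on 69 *Cxcl9* UMIs at a level read here as background and overlaps that of T cells (1.95, 1.49–2.57), so no direction is read for tumor cells. Endothelial cells had 0.831 and 0.488, and Kupffer cells 0.899 and 1.62. cDC1s had 0.112 and 0.326, mostly *Cxcl9*. T cells had 2.50 with anti–PD-1. Classes of the same library thus held the ligands in unlike proportions. After thinning, 7.31% of tumor cells had a UMI of both ligands with anti–PD-1 and 0.0772% with PBS, and 14.9% and 1.16% of endothelial cells did.

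Cells that held *Cxcl9* also differed from the other cells of their class in the same library. Cells were split by a *Cxcl9* UMI, the split cells differ in depth, and the values are a description. TAMs with a *Cxcl9* UMI had 9.95 times the *Cxcl10* level of those without with PBS and 2.66 times with anti–PD-1. *Ccl5*, a chemokine that attracts T cells, was 3.81 and 2.14 times as high. *Irf1*, the gene of an interferon-induced transcription factor, was 1.98 (1.75–2.24) times as high with PBS and 1.10 (0.966–1.25) times with anti–PD-1, where the interval included 1. *Ly6c2*, a marker of monocyte origin, was 2.06 and 2.50 times as high. *Arg1*, the arginase of macrophages that restrain T cells, stood at 0.365 and 0.231 times the level, and *Spp1* at 0.626 and 0.614 times. Of the 16 genes listed for this split that had UMIs, *Cxcl10* among them, 9 were higher and 5 lower in both libraries. These counts go by direction alone, and the same count over all genes is not given. They include *C1qa* at 1.02 (0.985–1.05) times with anti–PD-1 and *Il10* at 0.656 (0.386–1.05) times with PBS, where the interval included 1. Tumor cells with a *Cxcl9* UMI had 2.94 and 6.89 times as much *Cxcl10* and 2.22 and 1.74 times as much *Irf1* as tumor cells without. The macrophage markers other than *Apoe* were at 2106 against 955 CPM in tumor cells with and without a *Cxcl9* UMI with PBS and at 1449 against 1167 CPM with anti–PD-1. The same 7 markers were at 21619 and 22218 CPM in TAMs. Doublet marks fell on 10.6% against 4.05% of these tumor cells with PBS and on 2.04% (0.666–4.70) against 1.12% (0.511–2.11) with anti–PD-1.

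*Cxcr3* was highest in T cells, NK cells and plasmacytoid dendritic cells in the PBS library. T cells had 2319 *Cxcr3* UMIs with PBS, 214 CPM (206–223), and 1902 with anti–PD-1, 123 CPM (117–128). This is 1.75-fold (1.64–1.86) lower, a log2 ratio of -0.78, the 202nd lowest of 15194 genes. The share of all genes called lower by 2-fold was 0.513% in T cells. NK cells were at 169.5 and 106 CPM, 1.59-fold (1.36–1.87) lower, where 2.51% of all genes were called lower. *Cxcr3* thus stood lower with anti–PD-1 in both of its main lymphocyte classes, in each case within 2-fold. In Y-positive cells it was at 181 and 125 CPM in T cells (347 and 1976 cells) and at 180.5 and 105 CPM in NK cells (88 and 413 cells).

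CD8 T cells, the killing arm of the T cell response, had lower *Cxcr3* CPM with anti–PD-1 but nearly the same number of *Cxcr3* UMIs per cell. They had 507 UMIs in 950 cells with PBS, 152 CPM (139–166), and 724 UMIs in 1375 cells with anti–PD-1, 104 CPM (96.4–112). The ratio was 0.683 (0.609–0.767) and the log2 ratio -0.53 (-0.69 to -0.37), where 1.11% of all genes were called lower. There were 53.4 and 52.7 *Cxcr3* UMIs per 100 CD8 T cells, whereas the median depth of these cells was 2878 and 4066 UMIs. After thinning, 13.7% and 9.72% of CD8 T cells had a *Cxcr3* UMI, and before thinning 32.5% and 29.4%. In Y-positive CD8 T cells, *Cxcr3* was at 116 CPM (33 UMIs, 80 cells) and 109 CPM (781 cells), a log2 ratio of -0.09. The PBS interval there (79.6–162) included the 152 CPM of all PBS CD8 T cells.

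CD4 T cells outside the regulatory gate had *Cxcr3* at 259 and 136 CPM, 1.91-fold (1.69–2.15) lower, and their UMIs per 100 cells were 93.4 and 56.5. In Y-positive CD4 T cells it was at 223 CPM (76 cells) and 151 CPM (458 cells). Regulatory T cells, which restrain other T cells and can follow the same ligands, were at 236 and 165 CPM, 1.43-fold (1.20–1.71) lower. γδ T cells were at 232 and 154 CPM, 1.51-fold (1.07–2.11) lower, with a share after thinning of 15.3% and 18.3%. The difference in CPM had the same direction in all 4 subsets, and the difference in UMIs per cell was largest in CD4 T cells. NK cells had 51.2 and 43.0 UMIs per 100 cells and a share after thinning of 13.3% (10.6–16.4) and 9.43% (7.50–11.7), against 33.6% and 27.0% before thinning.

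**Figure D4:**
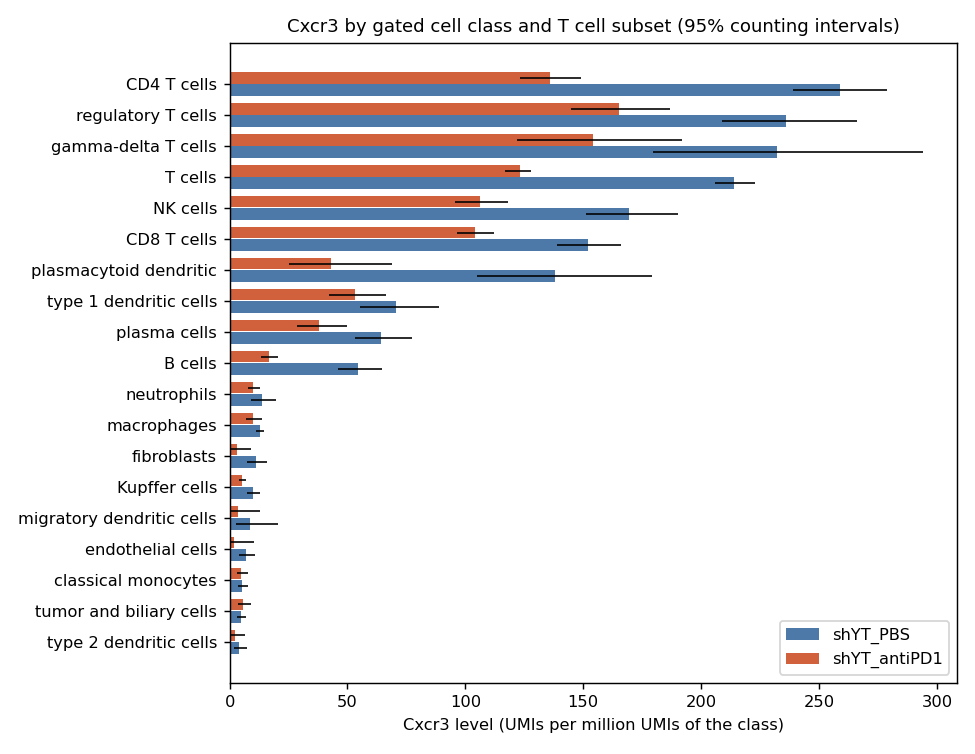
*Cxcr3* level in CPM of the class (x axis, from 0) in 15 gated classes and 4 T cell subsets, as bars with 95% counting intervals, for shYT_PBS and shYT_antiPD1. T cells are at 214 CPM with PBS and 123 with anti–PD-1, CD8 T cells at 152 and 104, and macrophages, neutrophils and tumor cells below 15 in both libraries.

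Outside T and NK cells, *Cxcr3* was at least 2-fold lower in 2 classes. Plasmacytoid dendritic cells had it at 138 and 43.0 CPM, a log2 ratio of -1.58, where 8.88% of all genes were called lower. After thinning, 13.8% of the 80 PBS cells had a *Cxcr3* UMI and 0 of the anti–PD-1 cells did (upper limit 6.49%). Before thinning, 37.5% (26.9–49.0) and 17.9% (8.91–30.4, 10 of 56 cells) had one. In Y-positive plasmacytoid dendritic cells *Cxcr3* was at 86.9 CPM (3 UMIs in 6 cells) and 48.1 CPM (43 cells), a log2 ratio of -0.79, which ends the 2-fold call. B cells had it at 54.6 and 16.6 CPM, a log2 ratio of -1.46, where 1.91% of all genes were called lower. In the PBS library 1 B cell held 28 of the *Cxcr3* UMIs, and without the highest cells the levels were 43.8 and 15.1 CPM. In Y-positive B cells the direction turned, at 9.48 CPM (3 UMIs in 120 cells) and 20.5 CPM (871 cells). With classes from clusters B cells were within 2-fold. Plasma cells were at 64.3 and 38.1 CPM and cDC1s at 70.6 and 53.3 CPM, within 2-fold. Plasma cells passed 2-fold with classes from clusters, and cDC1s did in Y-positive cells. *Cxcr3* in neutrophils (13.6 and 10.1 CPM), TAMs (12.8 and 9.90 CPM), Kupffer cells (9.91 and 5.41 CPM) and tumor cells (4.85 and 5.85 CPM) is read as background, as these classes are not known to carry the receptor. The thinned share was 1.52% and 0.882% in neutrophils and 0.772% and 0.385% in tumor cells.

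CD8 T cells with a *Cxcr3* UMI had more transcripts of the cycling gene *Mki67*, of granzymes and of *Pdcd1* and *Cxcr6* than those without. The split gave 309 and 641 cells with PBS and 404 and 971 with anti–PD-1, and the positive cells were deeper, at a median of 3332 against 2758 UMIs and 4916 against 3817. Of 19 listed genes, 10 were higher and 7 lower in the *Cxcr3*-positive cells of both libraries. These counts go by direction alone, and the same count over all genes is not given. *Mki67* was 2.31 and 2.71 times as high. *Gzmb* and *Gzmk*, granule proteases of cytotoxic T cells, were 1.64 and 1.39 times and 1.42 and 1.89 times as high. *Prf1*, the gene of perforin, was at 0.987 (0.772–1.26) and 0.872 (0.755–1.01) times the level, with 1 inside both intervals. *Pdcd1*, the gene of PD-1, was 1.54 and 1.51 times as high, and *Cxcr6*, a receptor of tissue T cells, 1.42 and 1.47 times. The genes of circulating and memory-like cells stood lower. *Ccr7*, which guides cells into lymph nodes, was at 0.411 and 0.436 times the level of *Cxcr3*-negative cells, and *Tcf7* at 0.653 and 0.567 times. *Tbx21*, the gene of T-bet, which is known to drive *Cxcr3*, was 1.24 (0.923–1.67) and 1.41 (1.19–1.67) times as high.

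*Ifng* was on opposite sides in the libraries by level, though not by share. It was 1.65 times as high in *Cxcr3*-positive as in *Cxcr3*-negative CD8 T cells with PBS and 0.620 times with anti–PD-1. One *Cxcr3*-negative anti–PD-1 cell held 620 of 1479 *Ifng* UMIs, and the 10 highest cells held 70.3%. Without that cell the negative cells were at 195 CPM, against 207 CPM in all positive cells and 156 CPM once their own highest cell (130 UMIs) was left out too, so the direction by level rests on few cells. The share of cells with an *Ifng* UMI was higher in *Cxcr3*-positive cells in both libraries, at 19.7% against 9.98% and 33.2% against 17.5%. After thinning, it was 7.47% (4.79–11.0) against 4.26% (2.82–6.14) and 11.9% (8.89–15.4) against 7.55% (5.95–9.41), and the intervals overlapped in both libraries.

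**Figure D5:**
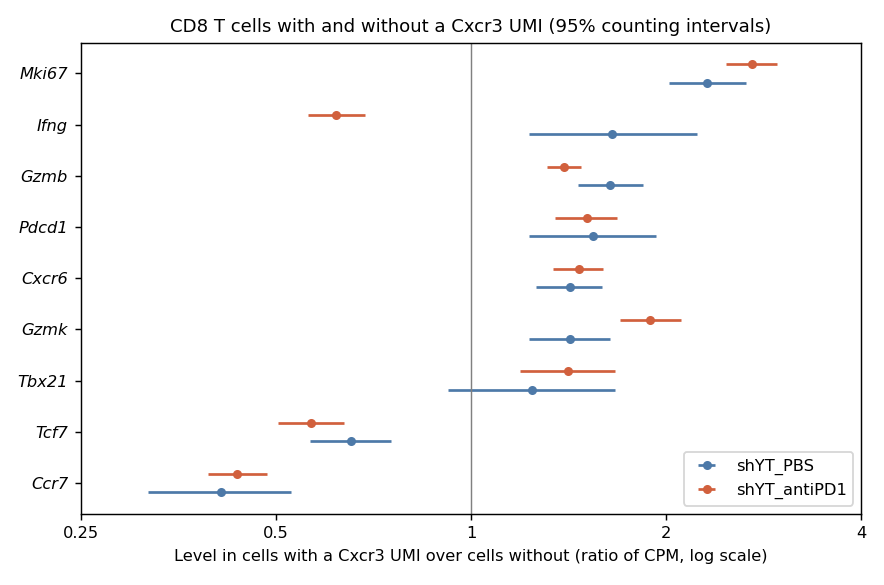
Level of 9 genes named in the text in CD8 T cells with a *Cxcr3* UMI over that in CD8 T cells without. Values are ratios of CPM (log axis) with 95% counting intervals, for shYT_PBS and shYT_antiPD1. *Prf1*, also named in the text (0.987 and 0.872), is not drawn. *Mki67* lies at 2.31 and 2.71, *Ccr7* at 0.411 and 0.436, and *Ifng* on opposite sides of 1 at 1.65 and 0.620.

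The genes upstream of the ligands were taken from fixed lists. *Ifng* itself was at 83.5 and 201 CPM in T cells, at 55.1 and 288 CPM in CD8 T cells and at 175 and 405 CPM in NK cells. In these 3 classes it was called higher, but 1 anti–PD-1 CD8 T cell held 620 of the 3108 *Ifng* UMIs of T cells and of the 2005 of CD8 T cells. Without the highest cell of each library *Ifng* was at 81.6 and 161 CPM in T cells (log2 ratio 0.94, within 2-fold), at 52.2 and 199 CPM in CD8 T cells (1.83) and at 169 and 392 CPM in NK cells (1.19). Its receptor genes *Ifngr1* and *Ifngr2* were within 2-fold. Of 13 genes of JAK-STAT, IRF and NF-κB signalling, 6 were called higher in TAMs, 6 in tumor cells, 6 in endothelial cells and 5 in Kupffer cells, with 0 lower in each. Their median log2 ratio was 0.45, 0.86, 0.39 and 0.37, against -0.14, -0.07, -0.10 and -0.10 for all genes. In T cells 0 of the 13 were called, with a median of 0.17 against -0.12. In NK cells 2 were called higher, with a median of 0.09 against -0.16. Both ligands were called higher in T cells and in NK cells too. *Irf1*, a transcription factor that interferon-γ induces, was at 36.6 and 256 CPM in tumor cells, a ratio of 6.99 (6.06–8.09). Its level was 79.6 and 283 CPM in TAMs. Endothelial cells had 84.0 and 349.5 CPM of it, and Kupffer cells 116 and 461 CPM. *Irf1* was called higher in all 4 of these classes, and so were both ligands. The TAM calls set unlike cells against each other. Within TAM clusters 2 and 9 the log2 ratio was -0.71 and -2.06 for *Cxcl9* and 0.56 and -1.22 for *Cxcl10*. *Irf1* and the other listed signalling genes were not compared within clusters. Of the 13 genes, 5 were also called higher in CAFs, with a median of 0.98, the highest of the 13 classes and subsets examined, and 5 in classical monocytes, with 0.49. *Cxcl10* was called higher in both of these classes, as in 13 of the 14 classes compared, and *Cxcl9* was within 2-fold in both. Of the type I interferon genes, *Ifnb1* was called higher in TAMs, on 9 and 26 UMIs (0.511 and 7.15 CPM), and *Ifnar1* and *Ifnar2* were within 2-fold there.

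Genes of chemokine processing and of decoy receptors for chemokines were also listed. *Dpp4*, a protease that truncates CXCL9 and CXCL10 and turns CXCL10 into an antagonist, was at 45.6 and 45.7 CPM in T cells and at 290.1 and 225 CPM in endothelial cells. *Ackr1*, a decoy receptor of venular endothelium, was at 36.5 and 120.3 CPM in endothelial cells, a log2 ratio of 1.59. *Ackr2*, a decoy receptor for other inflammatory chemokines, was at 81.8 and 45.1 CPM there. Of the 3 listed genes that were counted, 1 was called higher in endothelial cells and 2 in CAFs, namely *Dpp4* at 15.3 and 46.0 CPM and *Ackr2* at 2.67 and 17.8 CPM. In cDC1s *Dpp4* was called lower, at 221 and 105 CPM, a log2 ratio of -1.03. The third CXCR3 ligand gene, *Cxcl11*, is annotated as a transcribed pseudogene in the mouse RefSeq table and is not among the genes counted, so it was not analysed here. Of 6 regulators and partners of *Cxcr3* in lymphocytes, 0 were called in T cells, CD8 T cells or NK cells, and *Tbx21* was at 66.6 and 78.3 CPM in T cells.

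Genes of the response to tissue dissociation were also higher in the anti–PD-1 library. Of 14 such genes, 9 were called higher in TAMs (median log2 ratio 1.41), 9 in Kupffer cells (1.25), 10 in tumor cells (1.68), 11 in endothelial cells (1.76) and 5 in T cells (0.65), with 0 lower in these classes. Over the 13 classes and subsets examined, the median was lowest in neutrophils at 0.27 and highest in CAFs at 2.11. Their part in the ligand values was not tested, and sex, preparation and treatment cannot be told apart with 1 library per group.

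The genes whose levels were most like those of each member were found over 30 sums, 15 classes in each of 2 libraries, among 13840 genes. The sums share libraries and differ in depth, and the Pearson correlations of log2 levels are a description. For *Cxcl9*, the nearest gene was *Cxcl10* (r = 0.79), then *Batf2* (0.78), *Ube2l6* (0.75), *Cd40* (0.73) and *Gpr157* (0.73). For *Cxcl10* they were *Gbp2* (0.82), *Atf3* (0.80), *Cxcl9* (0.79), *Gbp5* (0.78) and *Gbp3* (0.78), among which *Atf3* is also in the list of dissociation genes. For *Cxcr3* they were *Rnf123* (0.82), *Gm44574* (0.80), *Sept1* (0.80), *Ptprcap* (0.78) and *Fam117a* (0.78). *Gbp2*, *Gbp3* and *Gbp5* encode interferon-induced GTPases, and *Ptprcap* encodes a protein that binds the leukocyte phosphatase CD45.

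Neighbors in the order of levels often had overlapping counting intervals. Such an overlap does not show that levels are the same, and neighbors were not tested against each other. Of 14 neighboring pairs of classes, the intervals overlapped in 9 for *Cxcl9* with PBS and 5 with anti–PD-1, in 12 and 9 for *Cxcl10*, and in 11 and 11 for *Cxcr3*. In the anti–PD-1 library, endothelial cells, migratory dendritic cells and tumor cells led for *Cxcl9* without overlap, and migratory dendritic cells, tumor cells, monocytes and TAMs overlapped in turn for *Cxcl10* at 441, 438, 416 and 403 CPM.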

How the data were processed

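The deposited values were unnormalized UMI counts for each gene in each barcode, made by the authors with the Singleron software on mm10. Seurat 4.3 stands in the submitters' processing notes, and the version of the Singleron software, the annotation and strand handling are not given in the sources used here. Cells kept had 500 to 5000 genes and at most 10% mitochondrial UMIs, the limits of the study's methods. A marker counted as positive in a cell above 2 times its mean CPM. A cell took the class with the highest share of positive markers, given at least 2 positive and 1.5 times the share of the best class of another lineage. Macrophages with a *Clec4f* UMI stayed ungated. Doublets were scored by simulated pairs (scanpy 1.11.5). The automatic threshold marked 0 and 2 cells and was replaced by the median score of simulated doublets, which marked 1352 (8.71%) and 1291 (7.89%); marked cells were kept. Clusters were made by the Leiden method at resolution 1 with 30 components, with the members left out of the genes used (leidenalg 0.10.2).

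Class sums of UMIs in each library were expressed as CPM with exact Poisson intervals, ratios with exact conditional binomial intervals and shares with Clopper-Pearson intervals (scipy 1.17.1). The 95% level was used throughout, for counting error alone. Coordinates came from an mm10 annotation and promoter sequences from the RefSeq table for GRCm38.p6. Named genes are the members, the fixed pathway and split lists, and the 5 nearest patterns per member, except some genes of these lists that are not reported here. Members and lists were chosen with earlier results of these data known, and the gate and doublet settings were set after cells and member values had been seen. Scripts were tested on simulated data. Alternatives covered pseudocounts, scaling, cell filters, gates, clusters, doublets, Y-positive cells, background subtraction and thinning, and, chosen after seeing the data, leaving out the highest cell (for *Ifng* too) and unthinned shares.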

Additional observations from a re-analysis of the deposited data

Results flagged for a closer look

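*Cxcl9* in plasmacytoid dendritic cells had a log2 ratio of -2.79, against a ratio at least 2-fold higher in 9 other classes. The difference was not tested, and 1 cell held most of the PBS UMIs. *Cxcl10* UMIs per *Cxcl9* UMI with anti–PD-1 over PBS were 2.25 in TAMs and 0.262 in tumor and biliary cells. This difference was not tested. The PBS ratio of tumor cells rests on 69 *Cxcl9* UMIs at a level read as background, so no direction is read for them. *Ifng* in *Cxcr3*-positive over *Cxcr3*-negative CD8 T cells was 1.65 with PBS and 0.620 with anti–PD-1, also not tested. With the highest cell of each side left out the ratios were 1.59 and 0.804, and 1 anti–PD-1 cell had held 620 of 1479 UMIs. *Cxcl9* CPM of TAMs with PBS over anti–PD-1 was 1.68 in cluster 2 and 4.21 in cluster 9, opposite to all gated TAMs, and the difference was not tested. Outside the cells used, those with over 5000 detected genes had *Cxcl9* at 418 CPM (484 cells) with anti–PD-1 and 16.8 CPM (927 cells) with PBS.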

How the results depend on the processing

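No paired analysis was possible because each group has 1 library, and leaving out a replicate was not possible for the same reason. The log2 ratio of *Cxcl9* in TAMs (1.07) moved to 1.26 with median-of-ratios scaling, 1.66 in Y-positive cells, 0.96 with thinned cells and 1.68 with the B cell level subtracted. *Cxcl10* in TAMs (2.19) moved to 2.02 with 20 CPM added, 2.38 with median-of-ratios scaling, 2.44 with classes from clusters, 2.96 in Y-positive cells and 3.33 with the B cell level subtracted. *Cxcl9* in tumor cells (5.48) moved to 5.92 and 4.52 with 1 and 20 CPM added, 5.08 with up to 20% mitochondrial UMIs, 5.03 with a stricter gate, 6.25 in Y-positive cells, 4.43 with thinned cells and 6.99 with the B cell level subtracted. *Cxcr3* in CD8 T cells (-0.53) moved to -0.09 in Y-positive cells, and *Cxcr3* in NK cells lay between -0.75 and -0.46 in all alternatives run. The number of classes with higher *Cxcl9* (9 of 15) was 8 with 20 CPM added, 8 of 14 with the B cell level subtracted, 12 with the stricter gate and 13 in Y-positive cells. The number with lower *Cxcl9* (1) was 0 with clusters, the stricter gate, no doublets, background subtraction or the highest cell left out. That for *Cxcl10* (0) was 1 in Y-positive cells. That for *Cxcr3* (2) was 4 with 1 CPM added, with thinned cells and with the highest cell left out, 1 with the stricter gate, and 1 in Y-positive cells, which was cDC1s (133 and 60.0 CPM, 12 and 89 cells) and neither of the main calls. Without thinning, shares were 12.2% and 29.1% (*Cxcl9*, TAMs), 3.03% and 23.3% (*Cxcl9*, tumor cells), 10.9% and 43.3% (*Cxcl10*, TAMs), 32.5% and 29.4% (*Cxcr3*, CD8 T cells) and 33.6% and 27.0% (*Cxcr3*, NK cells). Among called values, the direction turned for *Cxcr3* in B cells, to 0.82 in Y-positive cells (120 and 871 cells). It also turned for *Cxcl9* in plasmacytoid dendritic cells, to 0.54 with clusters (2 and 3 UMIs). In Y-positive cells of that class (6 and 43 cells) the value was 1.09, on 2 UMIs with anti–PD-1. These plasmacytoid values rest on too few UMIs to read a direction, and the cause of the turns was not tested. B cell ligand values, not called, turned as well: *Cxcl9* (-0.88) lay between -2.11 and 1.53 and *Cxcl10* (-0.04) between -1.48 and 2.64, with 6 and 5 of 11 alternatives on the same side. Of 579 further alternative values over 49 class values, 394 stayed within the counting interval, 182 moved and 3 turned a call. The subtracted B cell level of *Cxcl9* (76.7 and 39.5 CPM) rested on 1 cell with 57.7% of the PBS UMIs and exceeded the PBS level of tumor cells, so that their base was set to 0 and 6.99 carries no weight. Over all alternatives, the side of the 2-fold rule was kept by 5 of the 9 classes with higher *Cxcl9* (plasma cells, neutrophils, Kupffer, tumor and endothelial cells), 0 of the 5 within 2-fold and 0 of the 1 lower, by 11 of the 13 with higher *Cxcl10*, and by 0 of the 2 with lower and 7 of the 12 with *Cxcr3* within 2-fold. *Cxcl9* in TAMs fell within 2-fold with thinned cells and, narrowly, with no upper gene limit. Plasma cells kept their call on 5 and 18 UMIs once the highest cells were left out. Comparisons within clusters were not among these alternatives, and some of them ended a kept call. *Cxcl10* had log2 ratios of 0.56 and -1.22 in TAMs of clusters 2 and 9 and 0.52 in cDC1s of cluster 12. In neutrophils it was -0.69 in cluster 4 and 6.25 in cluster 14. Kupffer cells of cluster 5 kept the call at 3.63. Depth limits the small classes, where a few cells carry the ligands.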

Other observations

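Cells that the filters left out held the ligands as well. Those with over 10% mitochondrial UMIs had *Cxcl9* at 15.5 CPM with PBS (1727 cells) and 198 CPM with anti–PD-1 (780 cells), and *Cxcl10* at 29.7 and 218 CPM. Barcodes with under 500 detected genes had *Cxcl9* at 24.2 CPM (1212 cells) and 168 CPM (1827 cells), near the level in all kept cells only with anti–PD-1.

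In CD4 T cells split by a *Cxcr3* UMI, 9 of the 19 genes listed for that split were higher and 10 lower in the positive cells of both libraries. These counts go by direction alone, and the same count over all genes is not given.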
